A study of Mus musculus with 8 samples.

Results

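The 10 genes examined were those of the urea cycle and of hepatic glutamine and ornithine metabolism, Nags, Cps1, Otc, Slc25a15, Ass1, Asl, Arg1, Gls2, Glul and Oat. They were taken by mouse symbol from the 38283 genes of a liver mRNA-sequencing table. All 10 were among the 11634 genes with an FPKM (sequenced fragments, scaled to transcript length and to the reads mapped in the library) above 1 in at least 1 library, none was listed at 0, and all were above 1 in every library. After HFD feeding, averaged over both genotypes, Asl mRNA fell to 0.682 of its CD level and Slc25a15 mRNA to 0.687 in deposited FPKM. On the quantile normalized scale of the test these were 0.732 and 0.722. Both were called under every scaling tried, but not with every single library left out. Cps1 and Gls2 were lower without passing the test. They passed it without normalization, with median centring, or when only genes above 1 FPKM in all libraries were kept. Glul was called higher, but this call depended on how the libraries were scaled and on other settings of the test. No member passed the test between the genotype labels on either diet, and the widest genotype difference by fold on the deposited scale was that of Cps1 on HFD, with 455 and 456 FPKM against 596 and 666.

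The livers came from male C57BL/6 mice carrying floxed Rorα alleles (RORα f/f), and from littermates that also carried Alb-Cre (RORα LKO). Albumin-driven Cre deletes exons 4 and 5 of Rorα in hepatocytes, and liver cells in which this Cre is not active keep the floxed allele. Mice were fed a control diet (CD) or a high-fat diet (HFD) with 60% of its energy from fat for 10 weeks from 8 weeks of age. Each of the 4 groups had 4 mice and 2 libraries, a library being made from 2 livers mixed together, so that the spread within a group is that between 2 such pools. In the order of the libraries' numbers, Rora itself was at 8.85 and 8.59 FPKM in f/f on CD, 7.96 and 8.18 in LKO on CD, 7.56 and 7.86 in f/f on HFD, and 7.30 and 8.02 in LKO on HFD. The genotypes overlapped on HFD (log2 fold change 0.01, SE 0.07, limma adjusted p = 0.974). These values cover the whole gene and not the deleted exons, so that they check the genotype little, and every genotype difference below rests on the labels. The study's separate measurements of RORα mRNA and protein were not analysed here.

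The urea cycle is the route by which hepatocytes turn ammonia, which is toxic, into urea. Its first steps run in mitochondria and the later ones in the cytosol, and ornithine is carried between the compartments. The enzymes are most abundant in periportal hepatocytes, next to the incoming portal blood. Gls2 releases ammonia from glutamine there, whereas Glul, which rebuilds glutamine from the ammonia that escaped, is restricted to a thin layer of hepatocytes around the central vein, and Oat is abundant in the same layer.

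The 8 libraries had between 10587 and 10706 genes above 1 FPKM. Spearman's rho across genes was 0.969 to 0.975 for the 4 pairs of libraries of 1 group and 0.958 to 0.974 for the 24 other pairs. Of the hepatocyte markers, Apoa1, Ttr, Tat and Fgb summed to between 10853 and 13984 FPKM, and the sum was lower on HFD (10853 to 11507) than on CD (12556 to 13984) on the deposited scale. Ttr and Fgb overlapped between the diets. After normalization 1 of the 5 hepatocyte markers was called higher on HFD over both genotypes and 1 lower, beside 9.89% of all genes called. The median log2 difference of the 5 was 0.02, with Alb included at -7.46. Alb was listed at 0 in 4 libraries and at 29900 to 30890 in the others, a listing that may be a failed estimate. Summed markers of stellate cells and fibroblasts were at 67.3 to 93.2 FPKM on HFD and 37.4 to 59.6 on CD, and those of Kupffer cells at 56.7 to 99.2 over all libraries. Dcn, at 26.4 to 72.2 FPKM, made up most of the stellate and fibroblast sum. After normalization 3 of these 5 markers were higher on HFD over both genotypes, 2 of them called, and 2 were lower, with 0 called. All 4 endothelial markers were higher, with 1 called, and all 5 erythroid markers were lower, with 1 called. No tested marker of Kupffer cells, leukocytes, cholangiocytes or adipocytes was called in this comparison. The mean FPKM of the collagen genes Col1a1 and Col3a1 was lower on HFD in both genotypes, but these were low, at 0.548 to 1.08 and 1.47 to 2.82 FPKM. The adipocyte markers summed to at most 5.47 FPKM, with Adipoq, Plin1 and Lep at 0 in some libraries. In whole liver, fewer cells of a type and less RNA per cell cannot be told apart, and the part of cell composition in the differences below was not tested.

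Promoter sequences are shown for 3 members whose mRNA levels behaved differently, Slc25a15 (lower on HFD), Nags (the member furthest apart between genotypes on CD by fold) and Glul (the glutamine-building enzyme). The study describes the RORα response element as a core, AGGTCA or GGGTCA, with 6 A/T-rich bases before it. Only the 2 core hexamers were searched, on both strands, in the 250 bases before each RefSeq start on GRCm38.p6. The A/T-rich bases were not required, so a match is not a full element. Of the 10 members, 6 had an entry (Glul, Ass1, Oat, Slc25a15, Nags and Otc), with 7 windows in all. The motif pair was present in 3 of the 7 windows (Glul, Ass1 and Nags) and in 23.8% of 32851 RefSeq windows of this length. A match marks these letters only and does not show binding. Capitals mark the matches, and the 3 windows read 5′ to 3′ on the gene's strand.
Slc25a15, chr8:22398622-22398871, minus strand, no match: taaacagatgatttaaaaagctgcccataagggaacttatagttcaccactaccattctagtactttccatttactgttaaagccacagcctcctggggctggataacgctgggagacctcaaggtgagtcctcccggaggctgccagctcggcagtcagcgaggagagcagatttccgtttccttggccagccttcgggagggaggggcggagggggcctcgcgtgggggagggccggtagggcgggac
Nags, chr11:102145263-102145512, plus strand, 2 matches on the opposite strand, 178 and 169 bases before the start: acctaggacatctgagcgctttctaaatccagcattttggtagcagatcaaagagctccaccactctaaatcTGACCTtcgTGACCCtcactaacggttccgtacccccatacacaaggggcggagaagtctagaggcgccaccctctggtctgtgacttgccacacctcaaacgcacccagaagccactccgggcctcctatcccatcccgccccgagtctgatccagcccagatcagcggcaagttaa
Glul, chr1:153899679-153899928, plus strand, 1 match, 57 bases before the start: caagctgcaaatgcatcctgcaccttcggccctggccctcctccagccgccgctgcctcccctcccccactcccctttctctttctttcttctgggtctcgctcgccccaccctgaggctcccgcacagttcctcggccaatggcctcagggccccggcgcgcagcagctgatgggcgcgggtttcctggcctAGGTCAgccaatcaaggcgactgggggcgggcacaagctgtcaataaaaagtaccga

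**Figure D1:**
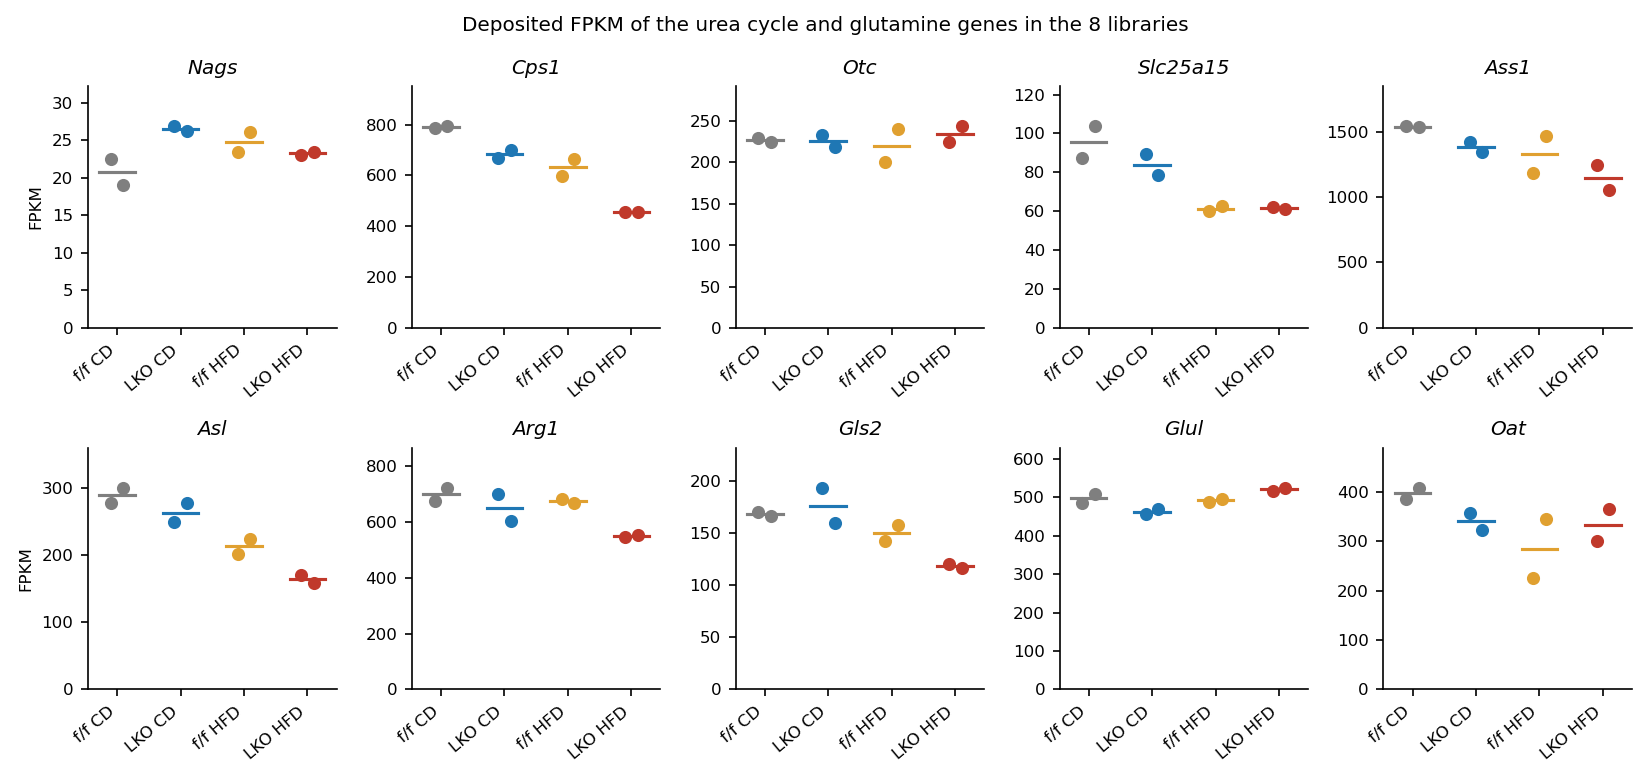
Deposited FPKM (y axis, linear, from 0, a separate scale for each gene) of the 10 members in the 4 groups (x axis). Each point is 1 library of 2 pooled livers and each bar is the mean of 2 libraries, and a reader should see Asl and Slc25a15 lower on HFD in both genotypes and Cps1 falling from 786 and 793 in f/f on CD to 456 and 455 in LKO on HFD.

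The mitochondrial entry into the cycle is made by 3 enzymes. Nags makes N-acetylglutamate, without which Cps1 is inactive. Its gene spans chr11:102145513-102149477 (GRCm38, plus strand), and it was the least abundant member in every group. Nags was at 22.5 and 19.1 FPKM in f/f on CD, 26.9 and 26.2 in LKO on CD, 23.4 and 26.1 in f/f on HFD, and 23.1 and 23.5 in LKO on HFD. The LKO-labelled libraries lay above the f/f-labelled ones on CD, and lay within or below their range on HFD. Log2 fold changes were taken between group means of quantile normalized log2(FPKM + 1) values and tested with limma, with Benjamini-Hochberg adjustment over all 11634 genes. For Nags on CD the difference was 0.36 (SE 0.09, 95% interval 0.14 to 0.58, adjusted p = 0.240), and on HFD it was -0.06 (interval -0.29 to 0.16, adjusted p = 0.861). The difference between those differences was -0.43 (SE 0.13, adjusted p = 0.558). The antisense gene Gm11586 overlaps Nags, shares 445 identical bases with it and was listed at 6.54 to 10.97 FPKM. Whether the counting used strand is not given in the sources used here, so reads of these genes cannot be told apart.

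Cps1 joins ammonia and bicarbonate into carbamoyl phosphate, the step that commits nitrogen to urea. Its 38 exons span chr1:67123026-67231259 (plus strand). Cps1 was at 786 and 793 FPKM in f/f on CD, 669 and 700.5 in LKO on CD, 596 and 666 in f/f on HFD, and 456 and 455 in LKO on HFD. All 4 HFD libraries were below all 4 CD libraries, and on each diet the LKO-labelled libraries were below the f/f-labelled ones. On HFD the LKO-labelled mean was 0.721 of the f/f-labelled mean, a log2 difference of -0.46 (SE 0.12, interval -0.73 to -0.18) with an unadjusted p of 0.00578 and an adjusted p of 0.310, and the adjusted p ranged from 0.128 to 0.753 over the alternative settings. On CD it was -0.17 (SE 0.12, adjusted p = 0.569). The diet difference averaged over the genotypes was -0.30 (SE 0.08, adjusted p = 0.0668) and became -0.46 (SE 0.05, adjusted p = 0.00655) when the libraries were not normalized. It also passed, at 0.0385, without LKO library 1 on CD.

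Otc joins carbamoyl phosphate and ornithine into citrulline. Otc (chrX:10252305-10321024, plus strand) was at 229 and 224 FPKM in f/f on CD, 234 and 218 in LKO on CD, 201 and 240.1 in f/f on HFD, and 225 and 244 in LKO on HFD. It was one of the steadiest members, with a coefficient of variation of 5.93% over the 8 libraries, and the 4 groups all overlapped. No Otc difference passed the test, the widest being 0.14 between HFD and CD in LKO (SE 0.10, interval -0.11 to 0.38, adjusted p = 0.488).

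Slc25a15 exchanges ornithine for citrulline across the inner mitochondrial membrane and so links the mitochondrial and cytosolic steps. Slc25a15 (chr8:22375551-22398597, minus strand) was at 87.2 and 104 FPKM in f/f on CD, 89.4 and 78.6 in LKO on CD, 59.96 and 62.7 in f/f on HFD, and 62.4 and 61.4 in LKO on HFD. The 4 HFD libraries lay close together, below the 4 CD libraries, and the genotypes did not separate on either diet. Averaged over the genotypes, Slc25a15 fell by 0.47 on the log2 scale (SE 0.08, interval -0.65 to -0.29, adjusted p = 0.0167). The adjusted p passed 0.05 without any 1 of the 4 HFD libraries (LKO library 1, 0.0617, and 2, 0.0685, f/f library 1, 0.0624, and 2, 0.0504) and stayed at 0.0231 to 0.0452 without any 1 of the CD libraries. Within f/f alone the difference was -0.61 (SE 0.11, adjusted p = 0.0565), and within LKO alone it was -0.33 (SE 0.11, adjusted p = 0.149). Whether the diet difference itself differed between genotypes did not pass the test (0.27, SE 0.15, interval -0.09 to 0.64, adjusted p = 0.670).

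The cytosolic steps are carried by Ass1, Asl and Arg1. Ass1 condenses citrulline with aspartate, which brings in the second nitrogen of urea, and was the most abundant member in all groups. Ass1 (chr2:31470207-31520672, plus strand) was at 1541 and 1535 FPKM in f/f on CD, 1422 and 1345 in LKO on CD, 1187 and 1466 in f/f on HFD, and 1244 and 1051 in LKO on HFD. The HFD libraries differed from each other more than those on CD did, and no Ass1 difference passed the test. For HFD against CD over both genotypes it was -0.04 (SE 0.12, interval -0.32 to 0.24, adjusted p = 0.859), and without normalization -0.25 (SE 0.09, adjusted p = 0.127). The near-identical copy Gm5424, 99.5% identical over 1240 bases, was listed at 7.67 to 10.99 FPKM, so that some Ass1 reads may have been assigned to it.

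Asl splits argininosuccinate into arginine and fumarate. Asl (chr5:130011258-130029247, minus strand) was at 279 and 301 FPKM in f/f on CD, 249.6 and 278 in LKO on CD, 202 and 225 in f/f on HFD, and 170.5 and 158 in LKO on HFD. The HFD libraries did not overlap those on CD, and on HFD the LKO-labelled libraries were below the f/f-labelled ones. Asl fell by 0.45 on the log2 scale over both genotypes (SE 0.07, interval -0.63 to -0.27, adjusted p = 0.0172). The adjusted p passed 0.05 without f/f library 2 on CD (0.0656), LKO library 2 on CD (0.0619), f/f library 1 on HFD (0.0578) or LKO library 2 on HFD (0.0648), and was 0.0355 to 0.0431 without any 1 of the other 4. It was the only member called within 1 genotype, falling by 0.54 in LKO (SE 0.11, adjusted p = 0.0490), and this adjusted p ranged from 0.0220 to 0.196 over the alternatives and was at least 0.0757 without any 1 of the 8 libraries. In f/f the difference was -0.36 (SE 0.11, adjusted p = 0.140), and the test of the difference between genotypes gave -0.18 (adjusted p = 0.743). Between genotypes on HFD it was -0.34 (SE 0.11, interval -0.59 to -0.09, adjusted p = 0.373).

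Arg1 releases urea from arginine and regenerates ornithine. Arg1 (chr10:24915221-24927484, minus strand) was at 675 and 722 FPKM in f/f on CD, 699 and 604 in LKO on CD, 684 and 669 in f/f on HFD, and 547 and 552 in LKO on HFD. The HFD-fed LKO-labelled libraries were the lowest, while the other 6 libraries overlapped. Between genotypes on HFD the difference was -0.19 (SE 0.07, interval -0.35 to -0.03, adjusted p = 0.434). The diet difference over both genotypes was 0.04 (adjusted p = 0.622) after quantile normalization and -0.14 (adjusted p = 0.189) without it, so that its sign depended on the scaling.

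Of the glutamine enzymes, Gls2 is the liver-type glutaminase of periportal hepatocytes and supplies ammonia to Cps1 next to it. Gls2 (chr10:128194457-128210004, plus strand) was at 170.4 and 166 FPKM in f/f on CD, 193 and 159 in LKO on CD, 143 and 157 in f/f on HFD, and 119.9 and 117 in LKO on HFD. The HFD-fed LKO-labelled libraries were the lowest, and all HFD libraries were below all CD libraries. The diet difference over both genotypes was -0.29 (SE 0.08, interval -0.47 to -0.11, adjusted p = 0.0639), and -0.37 (adjusted p = 0.0280) without normalization. Without LKO library 2 on CD the adjusted p was 0.0451. In LKO alone it was -0.49 (SE 0.11, adjusted p = 0.0653) and in f/f alone -0.09 (SE 0.11, adjusted p = 0.720), but the interaction, -0.41 (SE 0.15, adjusted p = 0.576), did not pass. Spryd4 overlaps Gls2 on the other strand and was at 12.5 to 19.9 FPKM.

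Glul, glutamine synthetase, varied least of the members, with a coefficient of variation of 4.74%. Glul (chr1:153899944-153909723, plus strand) was at 485 and 509.7 FPKM in f/f on CD, 458 and 469 in LKO on CD, 488 and 496 in f/f on HFD, and 517 and 525 in LKO on HFD. On the deposited scale the f/f libraries of both diets overlapped, and the LKO-labelled libraries were higher on HFD than on CD. After quantile normalization Glul was called higher on HFD over both genotypes by 0.23 (SE 0.05, adjusted p = 0.0383), with 0.36 in LKO (SE 0.07, adjusted p = 0.0529) and 0.10 in f/f (SE 0.07, adjusted p = 0.494). Without normalization the 3 values were 0.08 (adjusted p = 0.316), 0.17 (adjusted p = 0.192) and -0.02 (adjusted p = 0.930), so that the call and the sign in f/f were lost. Leaving out any 1 of the 8 libraries gave an adjusted p between 0.0669 and 0.108 for both genotypes together. Abundant genes also moved with the scaling as a class, and the part of this in the lost Glul call was not tested. For the 186 genes with a mean of at least 400 FPKM, among them Ass1, Cps1, Arg1 and Glul, the median diet difference was 0.11 after quantile normalization and -0.10 without it, whereas for all genes it was 0.01 and -0.02.

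**Figure D2:**
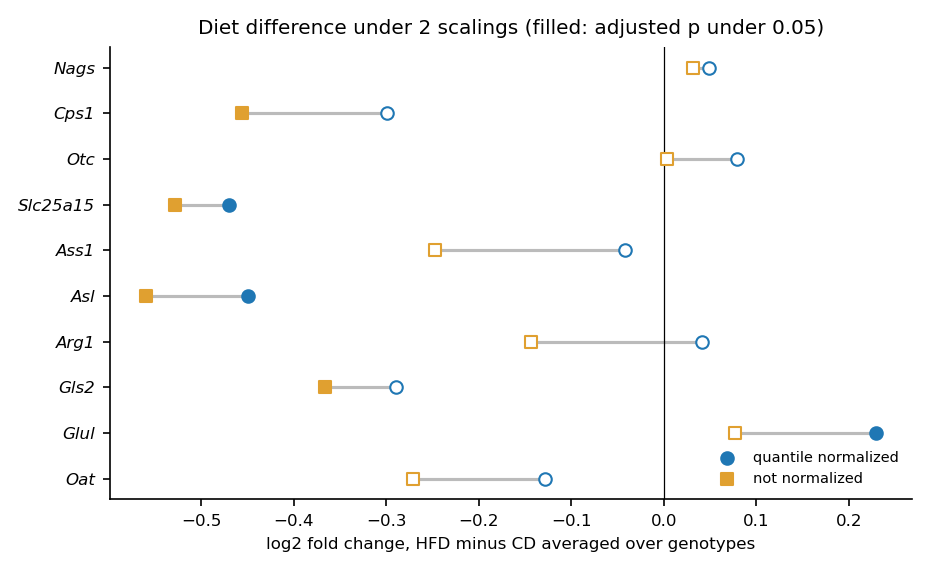
Log2 difference of HFD minus CD averaged over genotypes (x axis) for each member (y axis) after quantile normalization (circles) and without normalization (squares), with grey lines joining the values of 1 gene and filled symbols for a limma adjusted p under 0.05. Every value without normalization lies to the left of its normalized one, Glul moves from 0.23 to 0.08 and loses its call, and of these scalings Cps1 and Gls2 are called only without normalization.

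Oat takes the amino group from ornithine and so removes ornithine from the cycle or, run the other way, supplies it. Oat (chr7:132557478-132576398, minus strand) was at 387 and 409 FPKM in f/f on CD, 357 and 324 in LKO on CD, 226 and 345 in f/f on HFD, and 302 and 366 in LKO on HFD. The f/f-labelled HFD libraries were further apart from each other than the genotypes were, so that no Oat difference could be read from them. The widest differences were -0.41 for diet in f/f (SE 0.18, interval -0.83 to 0.01, adjusted p = 0.270) and 0.56 for the interaction (SE 0.25, adjusted p = 0.626). Leaving out 1 library at a time moved the f/f diet difference between -0.68 and -0.13. Fgfr2 overlaps Oat on the same strand and was at 5.80 to 9.88 FPKM.

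Over the 10 members, the diet comparison averaged over genotypes called 2 lower (Slc25a15 and Asl) and 1 higher (Glul), where 9.89% of all genes were called and 4.86% were called lower. In LKO 1 member was called against 3.02% of all genes, and 5 had an unadjusted p under 0.05 (Cps1, Slc25a15, Asl and Gls2 lower and Glul higher) against 21.3%. In f/f limma called none against 1.33%, with 3 members at an unadjusted p under 0.05 (Slc25a15 and Asl lower and Nags higher) against 19.2%. The HFD libraries lay below the CD libraries without overlap, all 4 against all 4, for 4 members (Cps1, Slc25a15, Asl and Gls2), against 10.3% of all genes. Taken within each genotype, 6 members were lower without overlap in f/f against 27.6% of genes, and 7 in LKO against 30.2%. The median log2 diet difference of the members was -0.08 over both genotypes, beside 0.01 for all genes, and was -0.26 beside -0.02 without normalization.

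Between genotypes no member was called by limma on HFD, where 0.043% of all genes were, on CD, where 0.0172% were, or for the interaction, where 0.0344% were. On HFD 4 members (Cps1, Asl, Arg1 and Gls2) had an unadjusted p under 0.05, all lower in LKO-labelled libraries, against 4.12% of all genes. These 4 were also lower without overlap, against 23% of genes, and Glul was higher without overlap, against 19.1%. On CD only Nags had an unadjusted p under 0.05, where 12.3% of genes had one, and 5 members were lower without overlap against 22.6% of genes. For the interaction 3 members had an unadjusted p under 0.05 (Nags and Gls2 lower and Glul higher) against 8.35% of genes. The members' median difference was -0.08 on HFD and -0.13 on CD, beside -0.00067 and -0.00085 for all genes. Averaged over the diets no member was called, against 0.103% of genes, and 3 (Cps1, Asl and Arg1) had an unadjusted p under 0.05 against 13.5%. The comparisons share libraries, so that the counts are not independent of each other.

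**Figure D3:**
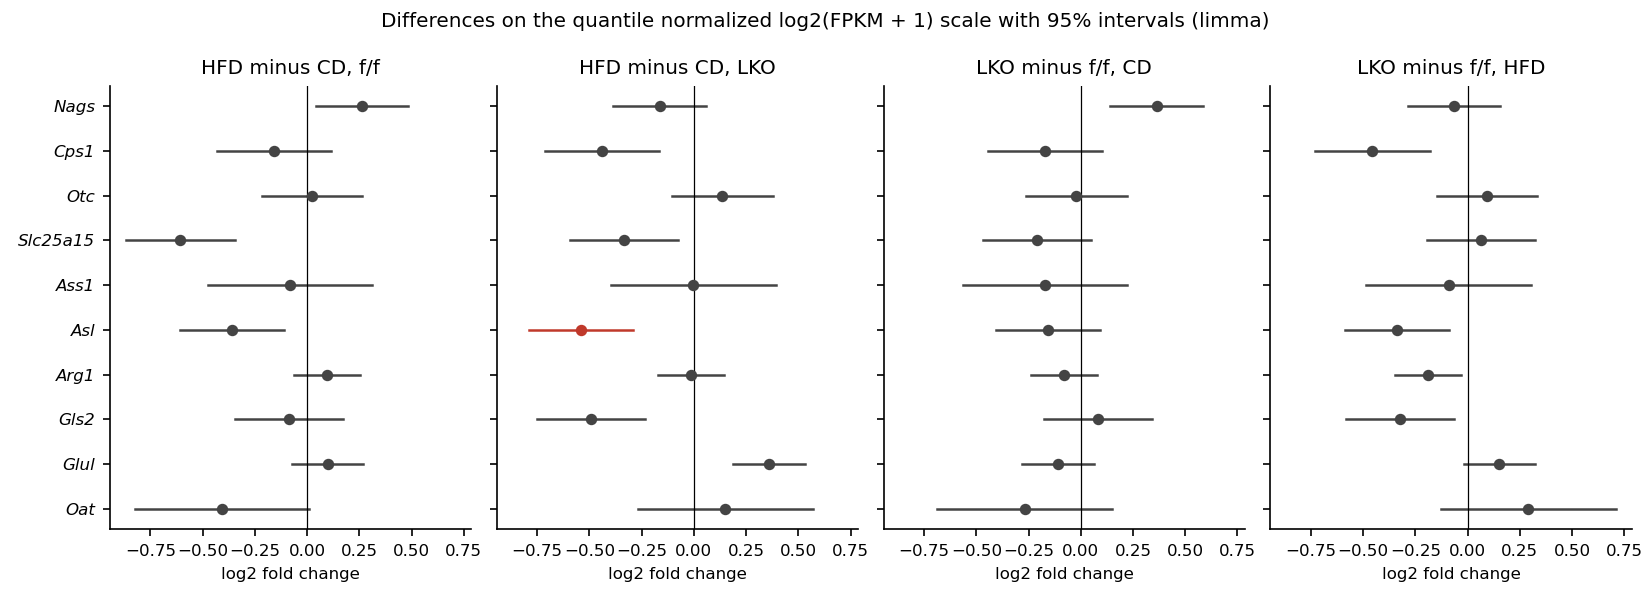
Log2 fold change (x axis, quantile normalized log2(FPKM + 1)) with 95% intervals from limma for each member (y axis) in the 4 comparisons of 2 groups, in red where the adjusted p was under 0.05 and in grey elsewhere. Only Asl in LKO on HFD against CD is red, at -0.54, and Cps1 between genotypes on HFD lies at -0.46.

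The order of the members by FPKM, a level per transcript length, was the same in f/f and LKO on CD, with Ass1 first, then Cps1, Arg1, Glul, Oat, Asl, Otc, Gls2, Slc25a15 and Nags. Cps1 and Arg1 overlapped in LKO on CD and so could not be ranked there. On HFD Cps1 was below Arg1 in f/f, and below both Arg1 and Glul in LKO. Oat overlapped Otc, and Otc overlapped Asl, in f/f on HFD. Otc was above Asl in LKO on HFD, at 225 and 244 FPKM against 158 to 170. The other neighbours in the order of each group did not overlap, with 2 libraries on each side.

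Ratios of deposited FPKM within a library are not moved by a linear scaling of the library, although quantile normalization does move them. The ratio of Cps1, the periportal ammonia user, to Glul, the pericentral one, was 1.62 and 1.56 in f/f on CD, 1.46 and 1.49 in LKO on CD, 1.22 and 1.34 in f/f on HFD, and 0.881 and 0.866 in LKO on HFD. On this scale the 4 groups did not overlap, and Cps1 was below Glul in LKO on HFD alone. After quantile normalization the ratio was 1.54 and 1.52 in f/f on CD, 1.36 and 1.58 in LKO on CD, 1.23 and 1.34 in f/f on HFD, and 0.846 and 0.835 in LKO on HFD, so that the genotypes overlapped on CD and LKO on HFD stayed lowest. The ratio of Gls2 to Glul was 0.351 and 0.326 in f/f on CD, 0.423 and 0.340 in LKO on CD, 0.292 and 0.317 in f/f on HFD, and 0.232 and 0.222 in LKO on HFD. It was lowest in LKO on HFD, and on CD the genotypes overlapped. The ratios were chosen with the values of these genes known, and no test was made of them.

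**Figure D4:**
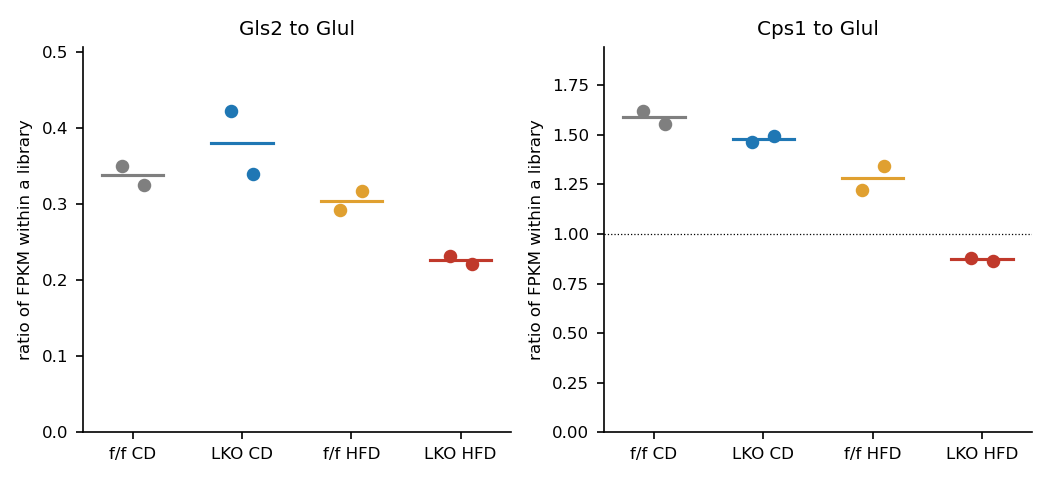
Ratio of FPKM within each library (y axis, linear, from 0) of Gls2 to Glul and of Cps1 to Glul in the 4 groups (x axis), with a point for each library and a bar at the mean of 2. The dotted line marks a ratio of 1, and the Cps1 to Glul points go from 1.62 and 1.56 in f/f on CD to 0.881 and 0.866 in LKO on HFD.

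Genes around the cycle, which supply or remove its nitrogen, were read from a list of 29, of which 24 were tested. On HFD against CD over both genotypes 4 of the 24 were called lower (Got1, Slc25a22, Slc38a2 and Asns) and 3 higher (Prodh, Car5a and Got2), beside 9.89% of all genes. Got1, the cytosolic aspartate aminotransferase, whose reaction links to the aspartate used by Ass1, was at 172 and 236 FPKM in f/f on CD, 180.2 and 199.5 in LKO on CD, 75.8 and 101 in f/f on HFD, and 48.0 and 52.6 in LKO on HFD. It fell by 1.14 in f/f (SE 0.19, adjusted p = 0.0464) and by 1.83 in LKO (SE 0.19, adjusted p = 0.0158), and on HFD the genotype difference was -0.76 (SE 0.19, adjusted p = 0.288). Each of these falls was wider than any diet difference among the 10 members on this scale, while the mitochondrial enzyme Got2 was 0.19 higher over both genotypes (SE 0.04, adjusted p = 0.0457).

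Slc25a22, a mitochondrial glutamate carrier, fell by 0.78 over both genotypes (SE 0.09, adjusted p = 0.00632), from 124 to 157 FPKM on CD to 74.1 to 79.7 on HFD. Slc38a2, an amino acid transporter of the plasma membrane, fell by 0.73 (SE 0.07, adjusted p = 0.00360). Asns, asparagine synthetase, fell by 1.59 (SE 0.11, adjusted p = 0.00181), but its HFD libraries were at 0.634 to 1.01 FPKM, near the filter on low values. Among those higher, Prodh, which starts proline breakdown, rose by 0.46 (SE 0.06, adjusted p = 0.00794), and by 0.70 in f/f alone (SE 0.08, adjusted p = 0.0266). Car5a, the mitochondrial carbonic anhydrase that supplies bicarbonate to Cps1, rose by 0.40 (SE 0.07, adjusted p = 0.0175). The calls of Got1, Slc25a22, Slc38a2, Asns and Prodh over both genotypes held under every alternative run, whereas the adjusted p reached 0.0681 for Car5a and 0.234 for Got2. Between genotypes limma called none of the 24 on either diet, with 3 at an unadjusted p under 0.05 on HFD, all lower, against 4.12% of all genes, and 4 on CD against 12.3%. The neighbours with the widest separated genotype differences on CD were Slc7a2, an arginine and lysine transporter (-0.57, adjusted p = 0.193), Slc38a2 (-0.43, adjusted p = 0.203) and Asns (0.41, adjusted p = 0.349), and on HFD, besides Got1, the glutamine transporter Slc38a3 (-0.36, adjusted p = 0.523) and Slc25a29 (-0.30, adjusted p = 0.542). Slc25a29 was at 0.845 to 1.63 FPKM over the libraries, near the filter on low values.

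Because Glul and Oat are pericentral and the urea cycle enzymes periportal, other genes of each zone were read beside them. Of 11 tested pericentral genes 4 were called higher on HFD over both genotypes (Cyp2e1, Aldh3a2, Gulo and Lgr5) and 1 lower (Cyp1a2), beside 9.89% of all genes. Lgr5 overlapped between the diets in f/f, at 2.48 and 3.30 FPKM on CD and 2.72 and 2.52 on HFD, and was separated in LKO alone. Of 10 periportal genes 5 were called lower (Cdh1, Sds, Pck1, Cyp2f2 and Etnppl) and 1 higher (Hsd17b13), so that neither list moved in 1 direction throughout. Cyp2e1, an ethanol-metabolizing cytochrome P450, rose by 0.67 in f/f (SE 0.10, adjusted p = 0.0393) and by 1.17 in LKO (SE 0.10, adjusted p = 0.00946). The size depended on the scaling, since its deposited FPKM on HFD was 1.39 and 1.54 times that on CD, and the log2 differences went as low as 0.48 and 0.62 over the alternatives. Sds, serine dehydratase, fell by 1.00 in LKO (SE 0.10, adjusted p = 0.0168) and was -0.34 in f/f (adjusted p = 0.155). The median diet difference was 0.29 for the pericentral and -0.43 for the periportal list, beside -0.08 for the members and 0.01 for all genes. Of the separated genes with the widest diet difference in f/f, Tbx3 was 0.72 higher (adjusted p = 0.0915), and Cyp1a2, Pck1 and Cdh1 were at -0.74 (adjusted p = 0.139), -0.84 (adjusted p = 0.127) and -0.79 (adjusted p = 0.0874). In LKO, Cdh1 fell by 1.15 (SE 0.18, adjusted p = 0.0301), Lgr5 rose by 0.78 (SE 0.12, adjusted p = 0.0301) and Aldh3a2 by 0.75 (SE 0.10, adjusted p = 0.0194). Over both genotypes the calls of Cyp2e1, Aldh3a2, Cdh1 and Sds held under every alternative run, and those of the other 7 zonation genes did not. Within a single genotype, no call of a gene in these lists or among the nitrogen neighbours held under every alternative.

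Between genotypes limma called no gene of the 2 zonation lists. On HFD 4 of the 11 pericentral genes were higher, 1 of the 10 periportal genes was higher and 2 were lower at an unadjusted p under 0.05, beside 5.46% of all genes higher and 4.12% lower. One of the 4 was Cyp2e1 (0.33), whose deposited FPKM overlapped between genotypes with an LKO to f/f ratio of 0.982, and whose difference went as low as -0.033 over the alternatives, so that its direction depended on the setting. The widest separated differences on HFD were those of Sds (-0.69, adjusted p = 0.144), Gldc (0.65, adjusted p = 0.328), Aldh3a2 (0.57, adjusted p = 0.178) and Lgr5 (0.46, adjusted p = 0.315). On CD they were Tbx3 (0.68, adjusted p = 0.230), Gldc (0.52, adjusted p = 0.328), Aldh1b1 (0.50, adjusted p = 0.328) and Lgr5 (-0.39, adjusted p = 0.288).

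**Figure D5:**
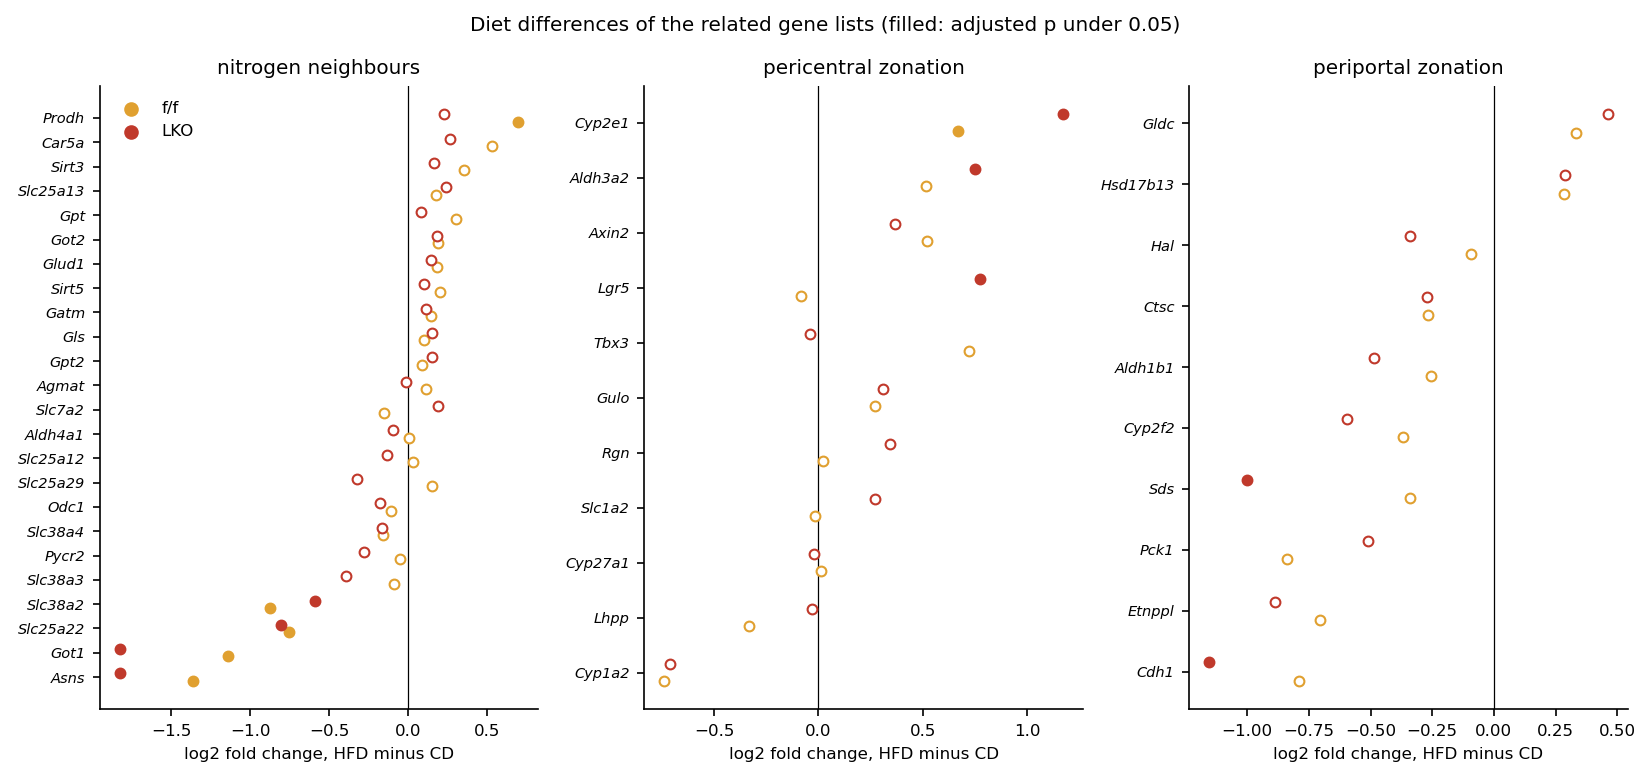
Log2 fold change of HFD minus CD (x axis, quantile normalized) in f/f (orange) and LKO (red) for each tested gene (y axis) of the nitrogen neighbours, the pericentral and the periportal list, filled where the limma adjusted p was under 0.05. Got1 and Asns lie furthest left among the neighbours, Got1 at -1.14 and -1.83, and Cyp2e1 lies at 0.67 and 1.17, values that went as low as 0.48 and 0.62 over the alternatives.

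The members were also compared with each other by Pearson's r of their normalized values over the 8 libraries, a description without a test, since the libraries share groups. Cps1 and Asl were the closest pair (r = 0.92), followed by Asl and Gls2 (0.80) and Slc25a15 and Asl (0.80). Glul ran against Gls2 (-0.88) and Asl (-0.75). Of all genes tested, those most like Cps1 over the 8 libraries included Per2 (r = 0.97) and Pla1a (0.96). Those most like Glul were Aqp9 (0.98), Acot12 (0.97) and Iars2 (0.97), and those most like Oat were Purb, Dcaf12l1 and Mark2 (0.93 each).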

How the data were processed

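Poly(A) RNA of 8 liver libraries was sequenced in pairs of reads (TruSeq v2 kit). Per the submitters' notes and the study's methods, the authors removed adapters and bases under PHRED 20 with cutadapt 1.0, aligned reads to GRCm38 with TopHat2 2.0.7 and estimated gene levels with Cufflinks. The deposited values are FPKM, scaled per length and library by the authors. They hold no counts, so depth could not be taken from them and no counting interval is given.

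As in the study, log2(FPKM + 1) values of genes exceeding 1 FPKM in any library were quantile normalized. All 8 libraries entered 1 limma 3.58.1 fit (R 4.3.3) of 4 group means with a mean-variance trend, 4 residual and 2.8 prior degrees of freedom, and Benjamini-Hochberg adjustment over 11634 genes. Calls are adjusted p under 0.05. P-values measure the spread between 2 pools a group. The study's own permutation procedure was not run. Fold changes on this scale understate those of low genes. On simulated data for LKO against f/f on HFD (11634 genes, 100 changed at each size), 88% of log2 changes of 1 and 98% of changes of 2 were recovered, with 10 false calls among 196. Both sizes were larger than any member difference, so recovery of changes as small as those of the members was not measured.

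The members, lists and ratios were chosen with earlier results of these data known. All members were named in each comparison, and of the other lists those called, plus in each comparison of 2 groups the 3 neighbours and 2 zonation genes with the largest separated difference. Likeness was taken for Cps1, Glul and Oat. A few results that these rules would name are not reported here. Coordinates are from GENCODE M21 (36341 of 38283 identifiers matched), and promoters from RefSeq GRCm38.p6. Alternatives were other scalings, a pseudocount of 0.1, other filters, no trend, each comparison alone, the replicate number as a block and each library left out.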

Additional observations from a re-analysis of the deposited data

Results flagged for a closer look

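Nags was higher on HFD than on CD in f/f (0.26, limma adjusted p = 0.198) and lower in LKO (-0.16, limma adjusted p = 0.359), without overlap in either genotype, and neither difference passed the test. Such non-overlap in either direction was seen for 49.9% of all genes in f/f and 53.2% in LKO. It was at 19.1 and 22.5 FPKM on CD and 23.4 and 26.1 on HFD in f/f, and at 26.2 and 26.9 on CD and 23.1 and 23.5 on HFD in LKO. The difference between these diet differences was -0.43 on the log2 scale (SE 0.13, interval -0.74 to -0.12), and limma with Benjamini-Hochberg adjustment gave 0.558, from 0.428 to 0.850 over the alternatives, so that it did not pass. Gm11586, the antisense gene that shares bases with Nags, was at 6.54 to 10.97 FPKM, and its part in the difference was not tested.

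Glul was lower in LKO-labelled than in f/f-labelled libraries on CD, at 458 and 469 against 485 and 509.7 FPKM, and higher on HFD, at 517 and 525 against 488 and 496, without overlap on either diet. The difference between these genotype differences was 0.26 (SE 0.10, interval 0.02 to 0.50), with an adjusted p of 0.576 in limma, from 0.511 to 0.850 over the alternatives. With 2 pools a group, non-overlap of a pair of groups was common, at 42.1% of genes on HFD and 43.3% on CD in either direction.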

How the results depend on the processing

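Same-numbered libraries came from different animals, so the numbers pair no animals. Over the 6 pairs of groups r of their deviations ran from -0.0037 to 0.149, and from -0.061 to 0.035 over genes above 0 in all libraries. Whether the numbers mark a shared processing step was not tested. Under a block for the replicate number, genes called were 34 for diet in f/f and 223 in LKO, and Asl in LKO lost its call (0 members). Over both genotypes 882 genes included 2 members (Asl and Slc25a15). The block also uses a residual degree of freedom, and whether the lost calls came from this was not tested. Without the trend, genes called were 42 for diet in f/f, 229 in LKO (0 members) and 4 for genotype on CD. Each comparison's libraries alone gave 5 genes for diet in f/f, 0 genes and 0 members in LKO, and 0 genes for genotype on CD. No filter on low values gave 24, 10 and 19 genes for genotype on HFD, on CD and the interaction, 46, 135 and 704 for diet in f/f, in LKO and over both, and 28 for genotype over both diets, with 0 members in LKO. Both without the trend and without this filter, Asl and Slc25a15 were called for diet over both genotypes and Glul was not. FPKM above 1 in all libraries gave 7 genes for genotype on CD, 0 for the interaction, 323 and 570 for diet in f/f and LKO, and 50 for genotype over both diets, with 1, 4 and 5 members for diet in f/f, in LKO and over both. The 4 in LKO were Asl, Cps1 and Gls2, lower, and Glul, higher. The 5 over both genotypes were these and Slc25a15, lower. A pseudocount of 0.1 gave 1 gene on CD and 2 for the interaction, and 1 and 2 members for diet in f/f and LKO. No normalization gave 7 genes for genotype over both diets. No normalization and median centring each gave 1 member in f/f (Slc25a15), and 3 and 2 in LKO. Under both, Cps1 and Gls2 were called over both genotypes and Glul was not. Without normalization the share of called genes that were higher on HFD went from 50.9% to 36.1% over both genotypes, 47.1% to 33.9% in f/f and 52.1% to 36.3% in LKO, and under the block to 17.6% in f/f. Member medians under these 2 scalings were -0.12 and -0.12 (interaction), -0.19 and -0.17 (diet in f/f), -0.26 and -0.23 (diet in LKO) and -0.26 and -0.23 (diet over both). Signs reversed, in the same order, for Ass1 in the interaction (-0.052, -0.051), Arg1 (-0.046, -0.019) and Otc (-0.046, -0.019) for diet in f/f, Oat for diet in LKO (-0.034, -0.00618), Glul for genotype over both diets (-0.010, -0.00333) and Arg1 for diet over both (-0.14, -0.12), and for Glul for diet in f/f without normalization (-0.016) and Otc on CD with centring (0.000762). The cause was not tested.

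Leaving out 1 library at a time, which also leaves fewer libraries in the fit, gave 4 to 21 genes called for genotype on HFD, 2 to 19 on CD, 13 to 30 over both diets, 10 to 21 for the interaction, 14 to 49 for diet in f/f, 21 to 154 in LKO and 374 to 816 over both. The lone library of a group was then taken to vary like the others. Members called were 0 in LKO throughout and 0 to 3 over both genotypes, with 0 without LKO library 2 or f/f library 1 on HFD. Member medians ran from -0.18 to 0.047 (genotype on HFD), -0.12 to 0.081 (interaction), -0.20 to 0.031 (diet in f/f), -0.18 to -0.071 (diet in LKO) and -0.19 to 0.022 (diet over both). Members whose sign turned were not called. Ass1 ran from -0.30 to 0.13 for genotype on HFD, -0.12 to 0.31 for the interaction and, for diet, -0.25 to 0.084 in f/f, -0.21 to 0.23 in LKO and -0.15 to 0.071 over both. Otc ran from -0.050 to 0.24 for genotype on HFD, -0.068 to 0.026 on CD and -0.035 to 0.11 over both diets, -0.030 to 0.26 for the interaction and -0.12 to 0.17 for diet in f/f. Oat ran from -0.13 to 0.15 for genotype and -0.26 to 0.0083 for diet over both groups, Nags from -0.14 to 0.014 for genotype on HFD and -0.0049 to 0.10 for diet over both, Gls2 from -0.063 to 0.23 for genotype on CD, Glul from -0.0068 to 0.051 for genotype over both diets, and Arg1 from -0.029 to 0 for diet in LKO.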

Other observations

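Transcription factors and zonation regulators known to act on these genes in liver were read from a list of 16, all tested. On HFD against CD over both genotypes those called included Hnf4a, which was higher, and Cebpb, which was lower, where 9.89% of all genes were called. Hnf4a, the main hepatocyte nuclear receptor, rose by 0.28 on the log2 scale (SE 0.07, adjusted p = 0.0475) and Cebpb fell by 0.55 (SE 0.12, adjusted p = 0.0325), both by limma. Cebpa, which binds promoters of several urea cycle genes, was at 73.6 and 65.9 FPKM in f/f on CD, 100.1 and 93.7 in LKO on CD, 104 and 98.5 in f/f on HFD, and 71.6 and 76.3 in LKO on HFD. It was called higher on HFD in f/f (0.59, SE 0.08, adjusted p = 0.0373) and not in LKO (-0.28, SE 0.08, adjusted p = 0.112), while the interaction was -0.87 (SE 0.11, adjusted p = 0.229). Over the alternatives the adjusted p of Cebpa in f/f ran from 0.0193 to 0.194, and it reached 0.132 for Hnf4a and 0.106 for Cebpb.

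Among other cells, the Kupffer cell markers Clec4f and Adgre1 differed between genotypes on HFD by 0.39 (adjusted p = 0.381) and 0.41 (adjusted p = 0.645), and the 6 markers of that list were all higher in LKO-labelled libraries there and 5 of 6 lower on CD, none of them called. Cfd, an adipocyte-secreted protease, was at 0.182 to 2.76 FPKM on CD, at 0.488 and 1.87 in f/f on HFD, and at 5.45 and 5.29 in LKO on HFD (between genotypes on HFD, limma adjusted p = 0.328). The other adipocyte markers did not follow Cfd. Adipoq was at 0.377 and 0.212 FPKM in f/f on HFD and at 0 in both LKO libraries on HFD. Plin1 and Lep were at most 0.0537 and 0.0227 FPKM in any library.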
